A study of Drosophila melanogaster with 8 samples.

Results

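The genes of apical-basal polarity and the E-cadherin gene shg were followed across 3 Drosophila melanogaster cell lines on Affymetrix DrosGenome1 arrays. The members were 10 of the 10844 genes named on the array, taken by symbol, namely crb, sdt, Patj, baz, par-6, aPKC, scrib, l(2)gl, dlg1 and shg. All probe sets paired with these symbols were taken, which gave 18 of the 13966 probe sets tested. RasV12 is a line derived from embryos by expression of an oncogenic form of the GTPase Ras, profiled at passage 12 on 3 arrays. L2 was profiled on 1 array and CL8 on 4, and the labels describe both only as cell lines, with no tissue, genotype or passage. Every culture was a separate T-flask harvested at 70% confluence. Each line is a single line, so p-values measure the spread between flasks of a line and not between lines of a kind, and oncogenic Ras cannot be told apart from anything else that separates these lines. No source used here gives the promoter that drove the transgene, and Ras85D has 0 probe sets under the names used, so the transgene was not checked.

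Epithelial cells keep an apical and a basolateral membrane domain apart with 3 groups of proteins that restrain each other. The Crumbs complex (the transmembrane protein Crb with the scaffolds Sdt and Patj) and the Par complex (Baz, Par-6 and the kinase aPKC) act apically, while Scrib, L(2)gl and Dlg1 act on the basolateral side. DE-cadherin, the product of shg, holds neighbouring cells together at adherens junctions through the catenins. In fly imaginal discs, loss of scrib, l(2)gl or dlg1 is known to cooperate with oncogenic Ras in the growth of invasive tumours.

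Values are the authors' log2 GCRMA expression values, on which a difference of 1 is a doubling of signal. Each probe set has its own scale, so levels are set against each other only within a probe set. The highest of 23 background control probe sets, for transcripts that flies lack, read 3.24 to 3.47 on the RasV12 arrays, 4.04 on the L2 array and 2.98 to 3.41 on the CL8 arrays. A probe set was called within background in a line unless most arrays of the line exceeded that value. The 75th percentile of all values was 8.09 to 8.17 on the RasV12 arrays, 8.32 on the L2 array and 8.96 to 8.99 on the CL8 arrays. Because of that gap, each difference is given as deposited and also rescaled, which means after all arrays were quantile normalized. In RasV12 against CL8 the median over all 13966 probe sets shifted by 0.13 on rescaling, in L2 against CL8 it shifted by -0.26, and in RasV12 against L2 by 0.38. For probe sets with a mean of 6 to 9 the median move was 0.74 in RasV12 against CL8, 0.53 in L2 against CL8 and 0.20 in RasV12 against L2. Tests are limma's, adjusted by Benjamini-Hochberg over all 13966 probe sets, with calls at an adjusted p below 0.05. Where brackets hold a value marked rescaled and then an adjusted p, that p belongs to the deposited difference before the brackets. In bulk RNA, fewer cells with a transcript and less of it per cell cannot be told apart.

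All 10 genes had a probe set above background in every line. Of the 18 probe sets, 11 were above background in RasV12, 12 in L2 and 13 in CL8. The 5 that stayed within background in every line were 4 of the 7 sdt probe sets and 1 of the 2 for dlg1. Over the 13 others, the SD between arrays ranged between 0.043 and 0.48 in RasV12 and between 0.054 and 0.60 in CL8.

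**Figure D1:**
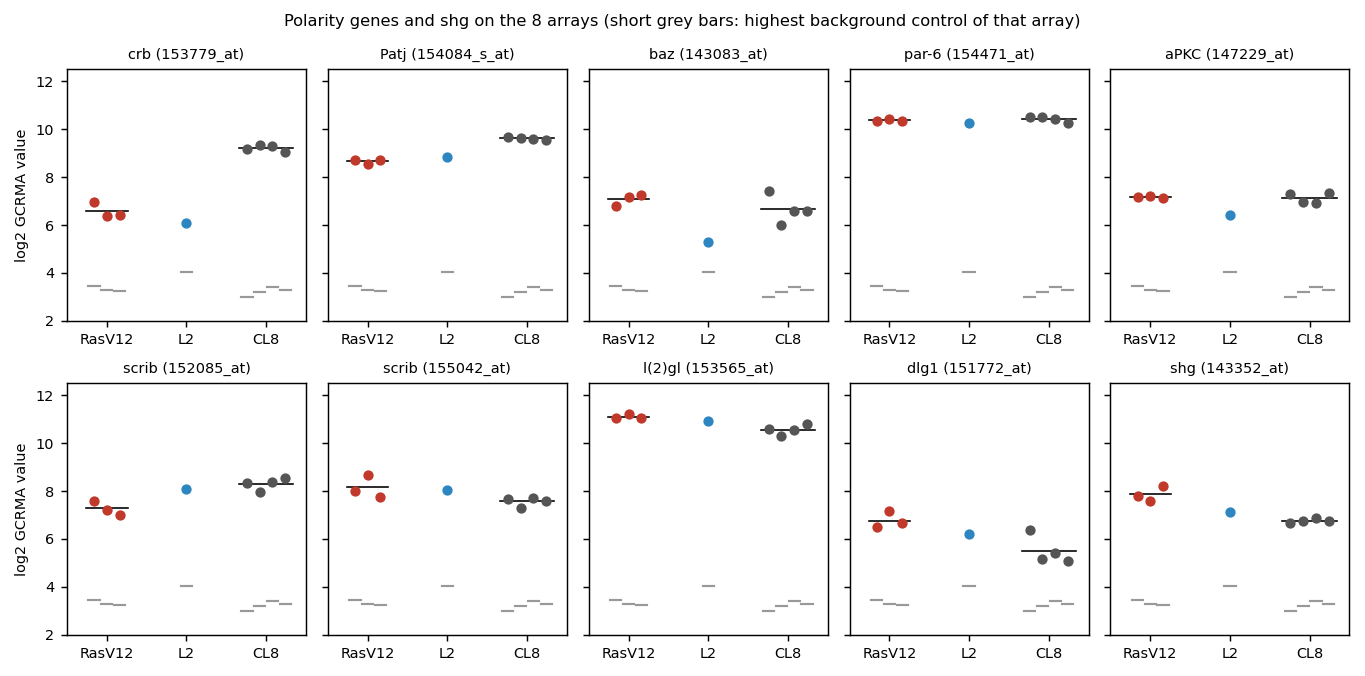
Log2 GCRMA value (y axis) of the 10 probe sets of shg and of the polarity genes other than sdt that were above background, on each RasV12, L2 and CL8 array. Points are arrays, black lines are means of RasV12 (n = 3) and CL8 (n = 4), and short grey bars are the highest background control of each array. crb lies below 7 on every RasV12 array and on L2 and above 9 on every CL8 array, while shg is highest on the RasV12 arrays.

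Between RasV12 and CL8, crb was the member that differed most, and it was lower in RasV12, while shg, dlg1 and l(2)gl were higher. Of the 18 member probe sets, 4 were called higher and 5 lower as deposited. Over all probe sets tested 49.9% were called, 11.3% higher and 38.6% lower. The members as a whole were thus called about as often as any other probe set. Rescaled, 10 were higher and 4 lower, against a background of 65.2% called, 35.5% higher and 29.8% lower. Calls in both scalings numbered 4 higher (shg, dlg1, l(2)gl and 1 sdt probe set) and 3 lower (crb and 2 sdt probe sets), where 36.9% of all probe sets were so called, 11.3% higher and 25.6% lower. With a difference over 1 also required, 2 were higher (dlg1 and shg) and 3 lower (crb, scrib 152085_at and sdt 144691_at), against 27.1% called over all, 5.01% higher and 22% lower. The median difference was 0.05 over the members and -0.08 over all probe sets, and 0.15 and 0.05 rescaled. The arrays of RasV12 and CL8 did not overlap for 11 of the 18, and for 56.6% of all probe sets.

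In the Crumbs complex, crb read 6.97, 6.36 and 6.42 on the RasV12 arrays, 6.09 on the L2 array and 9.18, 9.36, 9.31 and 9.03 on the CL8 arrays. Every CL8 array was therefore above every array of the other lines by more than 2 on the log2 scale. The RasV12 arrays averaged 6.58 ± 0.33 (SD, n = 3) and the CL8 arrays 9.22 ± 0.15 (n = 4), a difference of -2.64 (SE 0.16; -1.88 rescaled; limma adjusted p = 4.16e-06), which is 6.22-fold lower in RasV12. L2 was 8.73-fold lower than CL8, at -3.13 (-2.95 rescaled; limma adjusted p = 5.42e-05). RasV12 and L2 differed by 0.49 (95% interval -0.08 to 1.05; limma adjusted p = 0.12), which passed the test when rescaled (1.06; limma adjusted p = 0.0133) and with the medians of the arrays set equal (1.22; limma adjusted p = 0.00348). RasV12 was the higher of these lines each time, but whether the test was passed turned on the scaling, and L2 has 1 array. The difference from CL8 lay between -2.83 and -2.53 for RasV12 with any array, or either pair of CL8 arrays, left out.

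Patj encodes the PDZ scaffold that joins the complex through Sdt. It read 8.73, 8.53 and 8.72 on the RasV12 arrays, 8.82 on the L2 array and 9.68, 9.63, 9.59 and 9.56 on the CL8 arrays. The CL8 arrays were the highest and overlapped no other, but rescaling moved the difference about as far as it moved all probe sets with a mean over 9, for which the median move was 0.81. RasV12 against CL8 gave -0.95 (SE 0.082; limma adjusted p = 2.57e-05) as deposited and -0.13 rescaled, where the test was not passed (limma adjusted p = 0.118). The call held in 14 of the 15 alternatives, all but quantile normalization. With medians set equal, RasV12 against CL8 gave -0.89 and L2 against CL8 gave -1.47. L2 against CL8 gave -0.80 as deposited (limma adjusted p = 0.00144) and -0.11 rescaled, where the test was not passed (limma adjusted p = 0.355).

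Sdt is the membrane-associated scaffold that binds the tail of Crb. Its gene had 7 probe sets, the most of any member, all of them near or within background. On 144688_at, 144689_at, 144693_at and 151396_at no array of any line exceeded its background controls, with values between 1.96 and 3.19. The other 3 disagreed in direction. Probe set 144691_at read 2.14, 2.02 and 1.97 on the RasV12 arrays, 4.01 on the L2 array and 3.69, 3.60, 3.27 and 3.34 on the CL8 arrays. It was above background on 3 of the 4 CL8 arrays and nowhere else, and was at least 1.10-fold lower in RasV12 than in CL8, with measured means of 2.04 and 3.47 and a fitted difference of -1.43 (-1.48 rescaled; limma adjusted p = 2.28e-05).

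On 144690_at the RasV12 arrays read 3.29, 3.14 and 3.10, the L2 array 4.27 and the CL8 arrays 3.81, 3.97, 3.98 and 3.98. Only L2 and CL8 were above background there, and RasV12 was at least 1.51-fold lower than CL8 (fitted difference -0.76, and -0.76 rescaled). Probe set 144692_at was above background in all lines and ran the other way, at 4.21, 4.13 and 4.19 in RasV12, 4.28 in L2 and 3.69, 3.88, 3.93 and 3.94 in CL8. Its difference of 0.31 between RasV12 and CL8 (0.35 rescaled; limma adjusted p = 0.0171) missed the threshold without RasV12 array 1 (adjusted p = 0.0502), without RasV12 array 3 (adjusted p = 0.0566) and without CL8 arrays 1 and 2 (adjusted p = 0.0619). No direction holds for sdt as a whole.

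**Figure D2:**
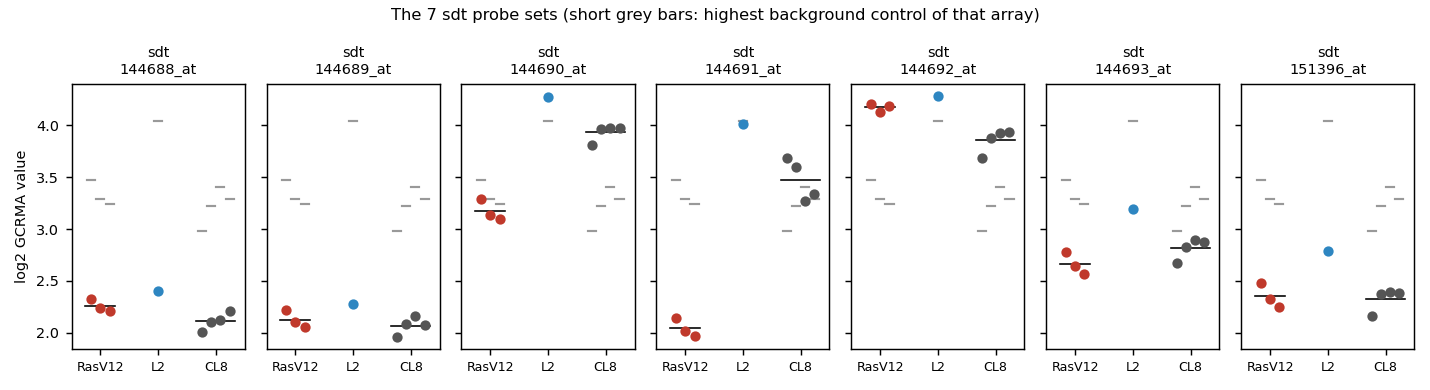
Log2 GCRMA value (y axis) of the 7 sdt probe sets on each RasV12, L2 and CL8 array. Points are arrays, black lines are means of RasV12 (n = 3) and CL8 (n = 4), and short grey bars are the highest background control of each array. 4 panels lie wholly under the grey bars, and only 144692_at lies above them in every line.

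The Par complex was close between RasV12 and CL8 as deposited, and its 3 genes were higher in RasV12 after rescaling. Rescaling moved these genes about as far as it moved all probe sets of like brightness. That median move was 0.74 at a mean of 6 to 9 and 0.81 over 9, so the rescaled calls are not particular to these genes. baz encodes the Par-3 scaffold. It read 6.78, 7.19 and 7.26 on the RasV12 arrays, 5.31 on the L2 array and 7.44, 5.98, 6.59 and 6.59 on the CL8 arrays. The CL8 arrays spread widely around RasV12, and L2 was below all of them. The difference between RasV12 and CL8 was 0.42 (95% interval -0.29 to 1.14; limma adjusted p = 0.30) and 1.01 rescaled, where it passed (limma adjusted p = 0.0259). It also passed without CL8 array 1, at 0.69 (limma adjusted p = 0.0295), and without CL8 arrays 1 and 2, at 0.48 (limma adjusted p = 0.0287), so it rests on which CL8 arrays are used. L2 was 2.54-fold lower than CL8, at -1.34 (-1.68 rescaled; limma adjusted p = 0.0337), and RasV12 was 3.40-fold higher than L2, at 1.77 (2.69 rescaled; limma adjusted p = 0.0156).

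par-6, which encodes the adaptor that holds aPKC in the complex, was the most even member across the lines as deposited. It read 10.34, 10.42 and 10.34 on the RasV12 arrays, 10.28 on the L2 array and 10.53, 10.53, 10.44 and 10.25 on the CL8 arrays. The lines were not separated by more than the spread of CL8. RasV12 against CL8 gave -0.07 (95% interval -0.28 to 0.15; limma adjusted p = 0.554) as deposited and 0.75 rescaled (limma adjusted p = 0.00023), so that its direction turns on rescaling. With medians set equal it gave -0.01. L2 against CL8 gave -0.16 as deposited, 0.50 rescaled and -0.83 with medians set equal, so its direction too depends on the scaling.

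aPKC encodes the atypical protein kinase C that phosphorylates L(2)gl and Baz. Its values were 7.17, 7.22 and 7.11 on the RasV12 arrays, 6.41 on the L2 array and 7.28, 6.95, 6.93 and 7.32 on the CL8 arrays. RasV12 lay inside the range of CL8, and L2 lay below both. RasV12 against CL8 gave 0.04 (95% interval -0.24 to 0.32; limma adjusted p = 0.775) as deposited and 0.72 rescaled (limma adjusted p = 0.00107). RasV12 was 1.69-fold higher than L2, at 0.75 (1.16 rescaled; limma adjusted p = 0.0109). L2 against CL8 gave -0.71 (limma adjusted p = 0.012), which missed the threshold rescaled, at -0.44 (limma adjusted p = 0.052).

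Among the basolateral genes, l(2)gl and dlg1 were higher in RasV12 than in CL8 in both scalings, and the probe sets of scrib disagreed. l(2)gl encodes a WD40-repeat protein excluded from the apical side by aPKC. It read 11.05, 11.22 and 11.04 on the RasV12 arrays, 10.92 on the L2 array and 10.60, 10.28, 10.55 and 10.82 on the CL8 arrays. All CL8 arrays lay below all arrays of the other lines. RasV12 was 1.45-fold higher, at 0.54 (SE 0.13; 1.31 rescaled; limma adjusted p = 0.00859). L2 against CL8 gave 0.36 (limma adjusted p = 0.126) and passed the test only when rescaled, at 1.02 (limma adjusted p = 0.00976).

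dlg1 encodes a membrane-associated guanylate kinase of the septate junction region. Its brighter probe set, 151772_at, read 6.49, 7.16 and 6.65 on the RasV12 arrays, 6.19 on the L2 array and 6.37, 5.16, 5.42 and 5.06 on the CL8 arrays. RasV12 did not overlap CL8, although CL8 array 1 lay close below the lowest RasV12 array and above L2. The difference was 1.27 (SE 0.32; 1.72 rescaled; limma adjusted p = 0.0112), a 2.40-fold higher signal in RasV12, and it was 1.56 without CL8 array 1. L2 did not pass the test against CL8 at 0.69 (limma adjusted p = 0.223), but did so without CL8 array 1, at 0.98 (limma adjusted p = 0.0205), and without CL8 arrays 1 and 2, at 0.95 (limma adjusted p = 0.0224). The second dlg1 probe set, 144871_at, stayed within background on every array, between 2.56 and 3.40.

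scrib encodes a leucine-rich-repeat and PDZ scaffold, and its probe sets ran in opposite directions. On 152085_at the RasV12 arrays read 7.60, 7.20 and 7.02, the L2 array 8.09 and the CL8 arrays 8.34, 7.98, 8.38 and 8.56. RasV12 was the lowest line there, and differed from CL8 by -1.04 (SE 0.18; limma adjusted p = 0.00125), which did not pass rescaled at -0.28 (limma adjusted p = 0.186). That call held in 14 of the 15 alternatives, all but quantile normalization, and the difference was -0.98 with medians set equal. On 155042_at the RasV12 arrays read 8.02, 8.68 and 7.75, the L2 array 8.04 and the CL8 arrays 7.67, 7.30, 7.72 and 7.59. All 3 RasV12 arrays were above CL8 here, by 0.58 (SE 0.22; limma adjusted p = 0.0571) as deposited and by 1.33 rescaled (limma adjusted p = 0.00268). Which transcripts of the gene each probe set reads was not examined here, and no direction is given for scrib as a whole.

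shg was highest in RasV12 among the 3 lines. It read 7.79, 7.60 and 8.21 on the RasV12 arrays, 7.14 on the L2 array and 6.66, 6.73, 6.89 and 6.76 on the CL8 arrays. No RasV12 array overlapped the other lines. RasV12 averaged 7.87 ± 0.31 (SD, n = 3) and CL8 6.76 ± 0.098 (n = 4), a difference of 1.11 (SE 0.15; 1.77 rescaled; limma adjusted p = 0.000297), which is 2.15-fold higher in RasV12. That difference passed the test under all 15 alternatives tried, between 0.93 and 1.24 with arrays left out. RasV12 was 1.66-fold higher than L2, at 0.73 (1.01 rescaled; limma adjusted p = 0.0258). L2 against CL8 gave 0.38 (95% interval -0.12 to 0.87; limma adjusted p = 0.149) as deposited and 0.76 rescaled, at the edge of the threshold.

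**Figure D3:**
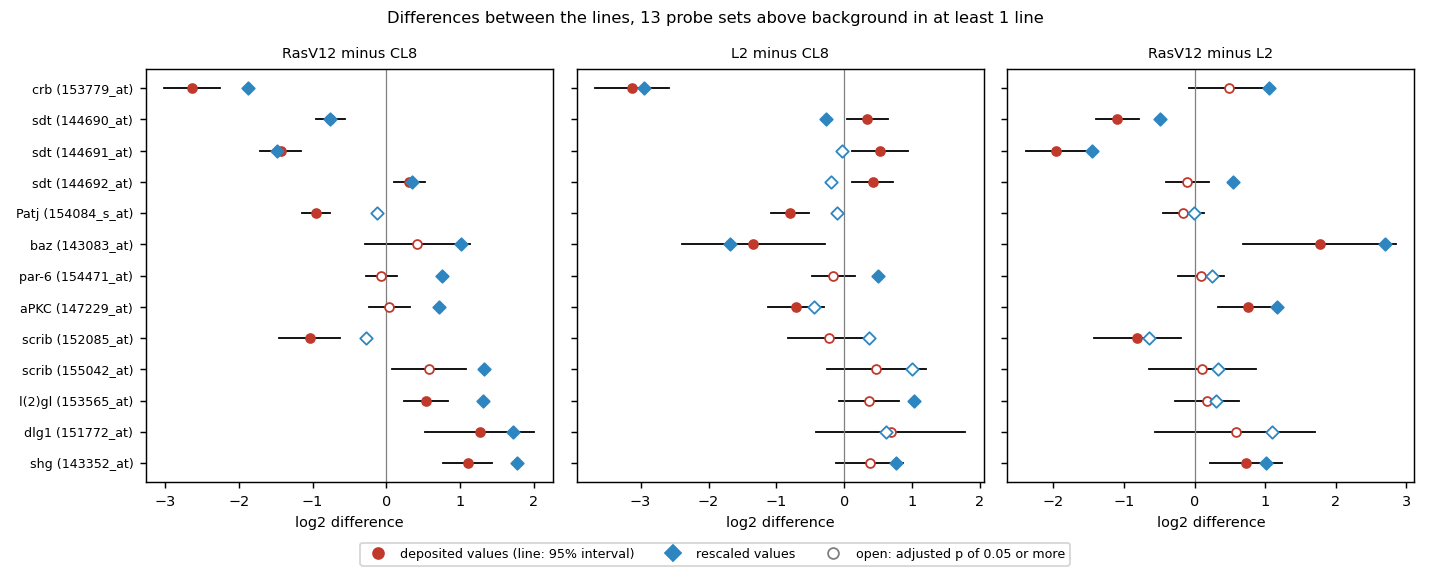
Log2 difference (x axis) of the 13 member probe sets above background in at least 1 line, for RasV12 minus CL8, L2 minus CL8 and RasV12 minus L2. Red circles are deposited values with their 95% interval, blue diamonds rescaled values, and open symbols did not pass the test. crb lies left of 0 in both comparisons with CL8, and shg lies right of 0 in both comparisons of RasV12.

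In L2 against CL8, crb and baz were lower, and the probe sets called higher were dim ones of sdt and dlg1. Of the 18 probe sets 6 were higher and 4 lower, where 61.8% of all probe sets were called, 38.3% higher and 23.6% lower. Of the 6, 5 belonged to sdt and 1 to dlg1, and 3 of them (sdt 144693_at and 151396_at, dlg1 144871_at) were within background in both lines. The L2 array also had the highest background controls, and their part in these calls was not tested. Rescaled, 4 were higher (par-6, l(2)gl, shg and the dim dlg1 probe set) and 3 lower (crb, baz and sdt 144690_at), against 37.6% called over all, 20.2% higher and 17.4% lower. In both scalings only crb and baz were lower and only the dim dlg1 probe set was higher, against 27.4% called over all, 11.7% lower and 15.8% higher. With a difference over 1 also required, 0 were higher and 2 lower (crb and baz), against 22.9% over all, 9.06% higher and 13.8% lower. The L2 array has no replicate and was assumed to vary like the other lines.

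RasV12 against L2 gave higher signal in RasV12 for shg, baz and aPKC. These were the 3 probe sets called higher, and 6 were called lower, where 53.7% of all probe sets were called, 9.57% higher and 44.1% lower. The 6 were 4 sdt probe sets, the dim dlg1 probe set and scrib 152085_at, which gave -0.82 (-0.64 and not past the threshold rescaled). Rescaled, 7 were higher and 3 lower (48% called over all, 22% higher and 26% lower). In both scalings the 3 higher ones passed, as did 3 of sdt in the lower direction (35.5% called over all, 9.53% higher and 25.9% lower), of which only 144690_at was above background in either line. With a difference over 1 also required, 1 was higher (baz) and 2 lower (sdt 144690_at and 144691_at), against 23.1% over all, 6.01% higher and 17.1% lower. The comparisons share arrays, so the difference of a member in one is not independent of that in another.

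Genes that work with the polarity complexes were read from a list of 35 partners. Of these, 26 had a probe set paired with 1 gene, 42 probe sets in all. Among those with no such probe set were arm, Cdc42, alpha-Spec, Rho1, sqh and zip. Between RasV12 and CL8 the largest change was in kst, which encodes the heavy beta-spectrin of the apical membrane skeleton that associates with Crb. kst read 10.20, 10.57 and 10.22 on the RasV12 arrays, 10.60 on the L2 array and 4.68, 4.17, 5.72 and 4.60 on the CL8 arrays. RasV12 and L2 were thus far above all CL8 arrays, the reverse of the order of crb. RasV12 was 46.4-fold higher than CL8, at 5.54 (SE 0.33; 5.94 rescaled; limma adjusted p = 3.69e-06), and L2 55.9-fold higher, at 5.81 (6.05 rescaled; limma adjusted p = 8.5e-05). RasV12 and L2 differed by -0.27 (95% interval -1.43 to 0.89; limma adjusted p = 0.655).

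Of the 42 partner probe sets, 7 were higher and 19 lower in RasV12 than in CL8 and 16 did not pass, against the same 11.3% higher and 38.6% lower over all. Rescaled, 18 were higher and 10 lower, against 35.5% and 29.8% over all, and 65.2% in either direction. In both scalings 7 were higher (11.3% over all) and 9 lower (25.6%). Their median difference was -0.37 (0.23 rescaled), where all probe sets had -0.08 (0.05 rescaled). The 7 higher ones were kst, Nrx-IV, cno, beta-Spec, Moe, insc and 1 of the 4 for gukh. Nrx-IV, a transmembrane protein gene of the septate junction, read 9.77, 9.89 and 9.68 on the RasV12 arrays and 8.22, 8.59, 8.42 and 8.32 on the CL8 arrays, a difference of 1.39 (2.20 rescaled; limma adjusted p = 1.49e-05). cno, which encodes the afadin that links adherens junctions to actin, read 9.94, 10.28 and 9.79 on the RasV12 arrays and 8.97, 8.53, 8.60 and 8.67 on the CL8 arrays, a difference of 1.31 (2.14 rescaled; limma adjusted p = 0.000119). No RasV12 array overlapped CL8 for either gene. The L2 array read 8.82 for Nrx-IV and 8.96 for cno, below every RasV12 array in both cases.

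The partner probe sets lower in RasV12 in both scalings included 5 above background in either line, for Galphai, mud, dia, pyd and ed. Galphai, a G protein subunit that recruits Pins to the cortex, differed by -1.78 on 142678_at (-1.04 rescaled; limma adjusted p = 2.71e-06), and its other probe set did not pass (-0.05, and 0.20 rescaled). mud, which encodes the NuMA homologue bound by Pins, differed by -1.41 (-1.26 rescaled; limma adjusted p = 1.25e-05). The formin gene dia differed by -1.32 (-0.49 rescaled; limma adjusted p = 4.84e-05). The ZO-1 homologue pyd differed by -1.97 on 149532_at (-1.78 rescaled; limma adjusted p = 0.00331). Its 6 probe sets gave between -1.97 and -0.04 as deposited and between -1.78 and 0.43 rescaled. The adhesion gene ed differed by -1.68 on 151631_at (-0.83 rescaled; limma adjusted p = 0.000716), and its 3 other probe sets did not pass in either scaling. Some of these differences from CL8 were shared by L2. L2 against CL8 gave -1.74 for Galphai 142678_at (-1.16 rescaled) and -2.48 for ed 151631_at (-1.90 rescaled). It gave -0.79 for dia (-0.16 rescaled), -0.79 for pyd 149532_at (-1.31 rescaled) and 0.02 for mud (-0.47 rescaled). Another pyd probe set, 151020_at, gave 2.88 (3.00 rescaled).

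Other partners turned, lost or gained their call with the scaling. alpha-Cat, which encodes the catenin that ties cadherin to actin, read 10.71, 10.76 and 10.63 on the RasV12 arrays, 10.92 on the L2 array and 11.57, 11.66, 11.30 and 11.08 on the CL8 arrays. RasV12 was below every CL8 array as deposited, at -0.71 (limma adjusted p = 0.00365), but not rescaled, at 0.11 (limma adjusted p = 0.464). yrt, a FERM protein gene that restrains Crb, gave -0.19 (0.64 rescaled) and cora, a FERM protein gene of the septate junction, 0.11 (0.89 rescaled), and both passed the test only rescaled. The kinase gene par-1, whose product keeps Baz off the lateral membrane, gave -0.43, 0.87 and 0.03 on its 3 probe sets (0.41, 1.10 and 0.85 rescaled), so it has no settled direction.

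**Figure D4:**
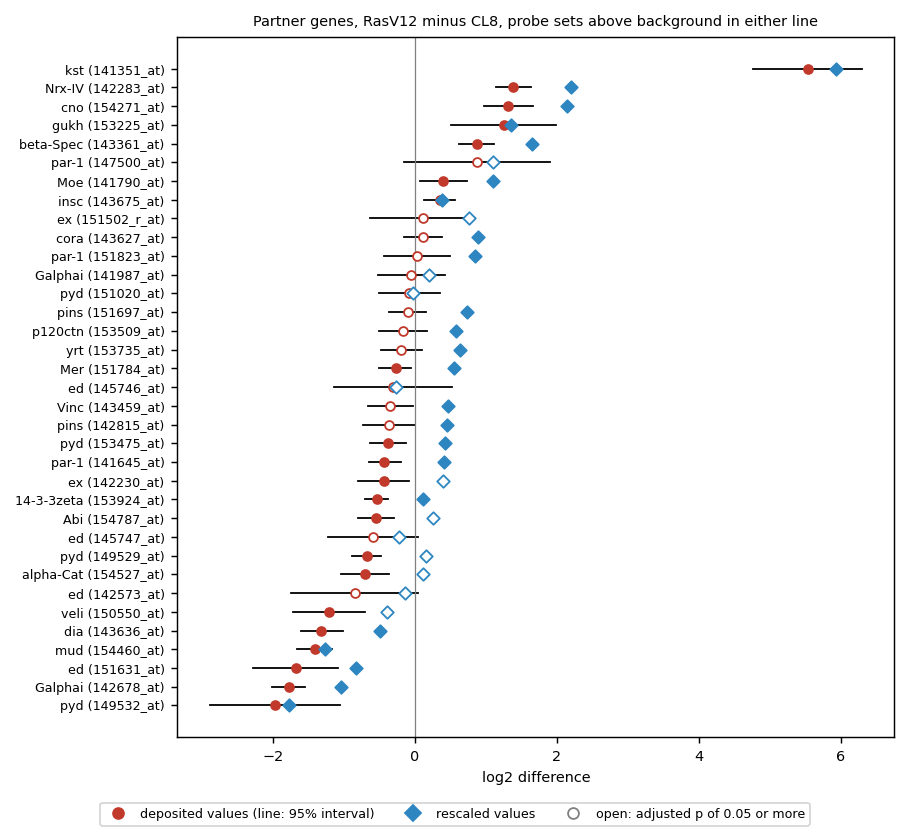
Log2 difference, RasV12 minus CL8 (x axis), of the 35 partner probe sets above background in either line. Red circles are deposited values with their 95% interval, blue diamonds rescaled values, and open symbols did not pass the test. kst stands alone at 5.54, and most other probe sets shift to the right on rescaling.

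Other cadherin genes were read from a list. Of 15 other cadherin genes listed, 11 had a probe set paired with 1 gene, 13 probe sets in all. Of the 13, 4 were called higher and 3 lower in RasV12 than in CL8, where 49.9% of all probe sets were called in either direction. Rescaled, 8 were higher and 2 lower, where 65.2% of all were called. CadN, the N-cadherin gene of neural and mesodermal tissue, read 10.20, 10.64 and 10.16 on the RasV12 arrays, 4.72 on the L2 array and 3.84, 3.99, 4.02 and 4.01 on the CL8 arrays. RasV12 stood apart from both other lines, in which CadN was only slightly above the background controls. It was 82.6-fold higher than in CL8, at 6.37 (6.72 rescaled; limma adjusted p = 2.2e-08), and 48.8-fold higher than in L2, at 5.61 (6.64 rescaled; limma adjusted p = 1.04e-06). L2 against CL8 gave 0.76 (limma adjusted p = 0.0123) and only 0.08 rescaled (limma adjusted p = 0.743).

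Other cadherin genes set L2 apart. Cals, which encodes a calsyntenin, averaged 10.19 ± 0.17 on the RasV12 arrays (SD, n = 3), with the highest at 10.3, and read 7.55 on the L2 array and 10.79, 10.59, 10.65 and 10.56 on the CL8 arrays. It was 8.59-fold lower in L2 than in CL8, at -3.10 (-2.51 rescaled; limma adjusted p = 6.9e-06), and RasV12 against CL8 gave -0.45 as deposited and 0.37 rescaled, so its direction turns with the scaling. Cad87A read 7.63, 8.13 and 7.34 on the RasV12 arrays, 3.88 on the L2 array and 7.0, 6.8, 7.32 and 6.39 on the CL8 arrays. It was within background in L2 and at least 7.14-fold lower there than in CL8 (limma adjusted p = 0.000522), with measured values of 3.88 and 6.88, while RasV12 was higher than CL8 by 0.83 (1.51 rescaled; limma adjusted p = 0.0247). The call in RasV12 missed the threshold without RasV12 array 1 (adjusted p = 0.0623) or array 2 (adjusted p = 0.0885). The Fat-like cadherin gene kug was higher in RasV12 than in CL8 by 0.47 (1.28 rescaled; limma adjusted p = 0.0109). ds, a giant cadherin gene of planar polarity, was lower in RasV12 than in CL8 at -0.80 (-0.79 rescaled; limma adjusted p = 0.0215). That call missed the threshold without CL8 arrays 3 and 4 (adjusted p = 0.0791) or without RasV12 array 2 (adjusted p = 0.0646) or 3 (adjusted p = 0.0713). ds read 3.57, 3.34 and 3.30 on the RasV12 arrays, close to their background controls. It read 5.31 on the L2 array and 3.56, 4.44, 4.61 and 4.20 on the CL8 arrays. RasV12 and CL8 thus overlapped, and L2 was above every other array. Cad86C on 149648_at averaged 5.97 in RasV12, 6.90 in L2 and 5.95 in CL8. L2 was above every array of the other lines, by 0.95 against CL8 (1.2 rescaled; limma adjusted p = 0.00045), which did not pass with medians set equal, at 0.28 (limma adjusted p = 0.169). RasV12 against CL8 gave 0.02 (0.43 and past the threshold rescaled). The other Cad86C probe set averaged 3.63 in RasV12, 3.99 in L2 and 3.65 in CL8, and stan 3.38 in RasV12, 3.31 in L2 and 3.20 in CL8, all close to the background controls. Cad74A averaged 3.22 in RasV12, 3.52 in L2 and 3.66 in CL8. It was above background in CL8 alone and was called lower in RasV12 (-0.44; limma adjusted p = 0.0133), but not rescaled (-0.44; limma adjusted p = 0.0521) or without RasV12 array 2 (adjusted p = 0.061).

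Of 8 transcription factor genes listed as acting on shg or crb transcription in the embryo, 7 had a probe set paired with 1 gene. twi, the mesoderm determinant, read 9.07, 9.52 and 9.43 on the RasV12 arrays, 7.12 on the L2 array and 2.68, 3.20, 2.71 and 2.71 on the CL8 arrays. It was within background in CL8, and RasV12 was at least 69.4-fold higher. srp, the GATA factor of hemocytes and endoderm, known in the fly endoderm to repress crb, read 9.49, 9.91 and 9.77 on the RasV12 arrays, 11.88 on the L2 array and 11.88, 11.86, 11.71 and 12.08 on the CL8 arrays. RasV12 was 4.47-fold lower than CL8, at -2.16 (-1.38 rescaled; limma adjusted p = 3.46e-06). sna, the repressor of shg in the mesoderm, was above background on 2 of the 4 CL8 arrays and on no other, at 2.93 to 3.31 in RasV12, 3.08 in L2 and 3.08 to 4.35 in CL8. Its relative esg, which maintains shg in the trachea, read 3.36, 3.07 and 3.03 on the RasV12 arrays, 4.30 on the L2 array and 3.99, 4.81, 5.48 and 5.17 on the CL8 arrays, at least 2.88-fold lower in RasV12 than in CL8 (limma adjusted p = 0.0022). The other relative, wor, stayed within background in all 3 lines. zfh1, a mesodermal zinc finger and homeobox gene, gave -0.63 between RasV12 and CL8 (0.17 rescaled; limma adjusted p = 0.17) and -1.22 without CL8 arrays 1 and 2 (limma adjusted p = 1.87e-05) or -0.91 without CL8 array 2 (limma adjusted p = 0.0161). grh, a factor of epidermal fate, read 4.71, 4.30 and 4.17 on the RasV12 arrays, 6.39 on the L2 array and 4.69, 4.82, 4.93 and 5.45 on the CL8 arrays. L2 was the highest line, by 1.41 against CL8 (1.38 rescaled; limma adjusted p = 0.00615), and RasV12 was lower than L2 at -1.99 (-1.84 rescaled; limma adjusted p = 0.00149). RasV12 against CL8 gave -0.58 (-0.46 rescaled; limma adjusted p = 0.0446), which missed the threshold without CL8 arrays 3 and 4 (adjusted p = 0.128) and in 5 of the 7 fits that left out a single array.

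**Figure D5:**
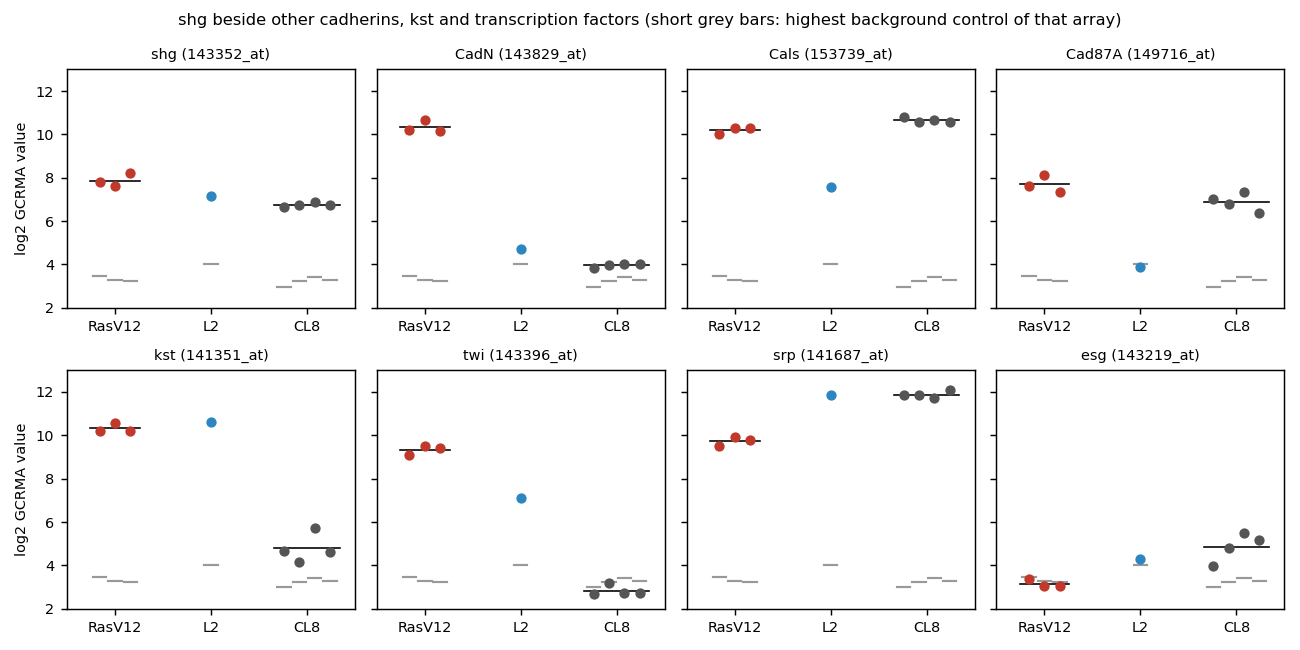
Log2 GCRMA value (y axis) of shg, the cadherin genes CadN, Cals and Cad87A, the spectrin gene kst and the transcription factor genes twi, srp and esg on each RasV12, L2 and CL8 array. Points are arrays, black lines are means of RasV12 (n = 3) and CL8 (n = 4), and short grey bars are the highest background control of each array. CadN is high only on the RasV12 arrays, and kst and twi are high on the RasV12 and L2 arrays.

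The genes whose values over the 8 arrays ran closest to those of shg were smal, CG14564 and wrapper. After each probe set's own mean was subtracted, they differed from shg by a root mean square of 0.124, 0.134 and 0.142 on the log2 scale, among 8615 candidate probe sets. Closest to crb were Non3, CG8128 and CG8607, at 0.195, 0.210 and 0.232. Of these, smal and wrapper were within background on the L2 array and on all 4 CL8 arrays, and smal on 1 of the 3 RasV12 arrays, so their likeness to shg rests on background values there. The other 4 were above background on all 8 arrays. With 3 lines on 8 arrays, such likeness mostly restates the differences between lines.

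Lists of cell type markers were read in the same way, and their counts in RasV12 against CL8 stand beside 49.9% of all probe sets called, 11.3% higher and 38.6% lower (65.2%, 35.5% and 29.8% rescaled). The mean log2 value of 13 hemocyte probe sets was 6.77 to 6.96 in RasV12, 9.70 in L2 and 8.44 to 8.69 in CL8, with 5 higher and 8 lower in RasV12 than in CL8 (5 and 7 rescaled). The 5 higher ones (Hml, NimC1, vkg and both PPO2 probe sets) differed by 0.24 to 0.83, and all but vkg averaged 4.34 or less in RasV12. The 8 lower ones differed by between -6.45 (Pxn) and -0.69 (PPO1, at 3.62 in RasV12). The L2 mean included PPO1, at 11.28 in L2 and 4.31 in CL8, and 1 of the 2 PPO2 probe sets, at 11.90 in L2 and 2.37 in CL8. Without the probe sets of PPO1 and PPO2, left out after their values were seen, the mean of the other 10 was 7.75 to 7.94 in RasV12, 9.88 in L2 and 9.92 to 10.23 in CL8, so the order of L2 and CL8 turned. In L2 against CL8, 6 of the 13 were called higher and 3 lower, against 61.8% called over all, 38.3% higher and 23.6% lower. Rescaled, 4 were higher and 3 lower, against 37.6% called over all, 20.2% higher and 17.4% lower. The 6 included PPO1 and 1 PPO2 probe set, and the 3 included eater, at 7.57 in L2 and a mean of 11.80 in CL8. Within background were 1 PPO2 probe set in RasV12 and in CL8 and none in L2. The mean of 15 mesoderm and muscle probe sets was 5.51 to 5.59 in RasV12, 4.87 in L2 and 3.81 to 4.10 in CL8, with 5 higher and 3 lower in RasV12 than in CL8 (8 and 2 rescaled). Within background were 7 of them in RasV12 (bap and sns), 7 in L2 (kirre and sns) and 8 in CL8 (kirre, sns and twi). The mean of 9 septate junction probe sets was 10.28 to 10.43 in RasV12, 8.47 in L2 and 8.94 to 9.29 in CL8, with 6 higher and 1 lower in RasV12 than in CL8 (8 and 1 rescaled) and none within background. Nrx-IV and cora are on this list as well as among the partners. The mean of 8 neural and glial probe sets was 3.83 to 4.06 in RasV12, 4.18 in L2 and 3.12 to 3.59 in CL8, with 4 higher and 0 lower in RasV12 than in CL8 (6 and 1 rescaled) and 4 within background in each line, brp and nSyb among them. The part of cell type in the differences of the polarity genes was not tested.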

How the data were processed

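Total RNA of 8 cultures was hybridised to 1-colour Affymetrix DrosGenome1 arrays. The authors made the deposited log2 expression values with GCRMA (background correction, normalization and summary per probe set) in Bioconductor and tested them with limma, per the series' design text. Versions, and whether all arrays were normalized in 1 run, are not given in the sources used here. No per-sample column was left unused (0).

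The 44 control probe sets were left out, and limma 3.58.1 in R 4.3.3 was fitted once to all 8 arrays over 13966 probe sets, with line as the only factor. The fit was tested on simulated data in which some probe sets were raised in RasV12 only. That simulation had no scale gap between the lines and no change in L2, so it does not bear on either. Lists were matched by symbol in the platform's gene annotation, updated by gene ID to RefSeq (Release 6 plus ISO1 MT). Of the array's probe sets 12443 paired with 1 gene and 327 with several, which were left unnamed. All probe sets of the 10 members are named. Of the partners, up to 8 called probe sets that differed most in RasV12 against CL8 are named, plus alpha-Cat, par-1, yrt and cora. Cadherin and transcription factor genes above background are given by value. The members and lists were chosen with earlier results of these data known.

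A fold against a line within background was computed against the higher of the highest background control and the probe set's own value, per array, and is written as at least that fold. Likeness is the root mean square difference of mean-centred values over 8 arrays. Alternatives were quantile normalization, medians set equal, a robust trended prior, fitting RasV12 and CL8 alone, a background filter, a difference over 1, a replicate block, leaving out arrays and, added later, leaving PPO1 and PPO2 out of the hemocyte list. Replicate numbers come from the sample titles. The number of arrays limits the precision.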

Additional observations from a re-analysis of the deposited data

Results flagged for a closer look

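CL8 array 1 stood apart from the other CL8 arrays on 2 of the 18 member probe sets checked. It read 3.81 on sdt 144690_at, where the other 3 CL8 arrays read 3.97 to 3.98, and 2.16 on sdt 151396_at, where they read 2.37 to 2.39. The gap to the nearest array took 0.895 and 0.896 of the range, past Dixon's critical value for 4 arrays. Chance alone marks about 1 in 20 groups of this size. The highest background control was lower on that array (2.98) than on the other CL8 arrays (3.22 to 3.41), and its part in these values was not tested.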

How the results depend on the processing

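L2 has 1 array, and each line is a single line. Whether probe sets near background follow the background level of their array was not tested. Of the single values recomputed under an alternative, 986 kept direction and call, 48 lost the call, 27 gained one and 32 turned direction. Of the counts, 95 stayed within 1.5 times and 25 did not. The causes were not tested.

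With quantile normalization, 10 member probe sets were higher in RasV12 than in CL8, 7 were higher and 3 lower in RasV12 than in L2, and 18 partner probe sets were higher and 10 lower in RasV12 than in CL8. With medians set equal, 0 members were higher and 12 lower in L2 than in CL8, where 1272 of all 13966 probe sets were higher and 8609 lower. In that setting 13 members were higher and 2 lower in RasV12 than in L2, where 6870 of all 13966 were higher and 1786 lower. Tested only above background, 2 were higher in L2 than in CL8 and 3 lower in RasV12 than in L2. With a difference over 1 also required, 2 were higher and 3 lower in RasV12 than in CL8, 0 higher and 2 lower in L2 than in CL8, 1 higher and 2 lower in RasV12 than in L2, and 4 partners higher and 7 lower in RasV12 than in CL8. With arrays left out, members higher in L2 than in CL8 numbered 3 to 6 (3 without CL8 array 3, CL8 array 4, RasV12 array 2, or CL8 arrays 3 and 4), and members lower in RasV12 than in L2 numbered 3 to 6 (3 without RasV12 array 2 or 3). Members numbered 3 to 5 higher and 5 lower in RasV12 than in CL8, and partners 5 to 8 higher and 16 to 21 lower.

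Direction turned with quantile normalization in L2 against CL8 for sdt 144690_at (-0.27), 144691_at (-0.04) and 144692_at (-0.20), par-6 (0.50) and scrib 152085_at (0.36). It turned in RasV12 against CL8 for par-6 (0.75), par-1 141645_at (0.41), yrt (0.64), alpha-Cat (0.11), Cals (0.37) and zfh1 (0.17), and in RasV12 against L2 for sdt 144692_at (0.55). With medians set equal it turned in L2 against CL8 for sdt 144690_at (-0.33), 144691_at (-0.14) and 144692_at (-0.25), scrib 155042_at (-0.20), l(2)gl (-0.31) and shg (-0.29), and in RasV12 against L2 for sdt 144692_at (0.63), Patj (0.57) and kst (0.46). Without CL8 arrays 1 and 2, RasV12 against CL8 turned for par-6 (0.03) and par-1 151823_at (-0.29). Cad86C 149648_at turned there without CL8 arrays 3 and 4 (-0.01) and with a replicate block (-0.01), and ranged between -0.01 and 0.05 with single arrays left out. The mean of the hemocyte markers in L2 minus CL8 was 1.15, and -0.18 without PPO1 and PPO2, an alternative chosen after seeing the data. With single arrays left out, aPKC ranged between -0.02 and 0.11 in RasV12 against CL8, par-1 151823_at between -0.14 and 0.16, and scrib 155042_at between -0.16 and 0.31 in RasV12 against L2.

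Same-numbered RasV12 and CL8 arrays did not deviate together (correlations of -0.243, -0.136 and -0.086). The labels do not say whether same-numbered flasks were handled together, and these correlations cannot settle it. With a replicate block, 4 members were higher and 5 lower and 6 partners higher and 19 lower in RasV12 than in CL8. In that fit sdt 144692_at (0.34, limma adjusted p = 0.136) and grh (-0.42, limma adjusted p = 0.0858) missed the threshold, and scrib 155042_at (0.58, limma adjusted p = 0.0421) and par-1 147500_at (0.77, limma adjusted p = 0.0336) passed it.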
